A study of Homo sapiens with 12 samples.

Results

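The genes described here encode 8 apolipoproteins (APOA1, APOA2, APOB, APOC1, APOC3, APOE, APOH and APOM) and 2 proteins that build or remodel lipoprotein particles (MTTP and LCAT). They were chosen by name, and all 10 were found by Ensembl identifier among the 57500 genes counted. RNA-seq covered 12 libraries of HepG2, a human hepatoma cell line, with 4 replicates in each of 3 groups. WT was the wild-type line, shTST carried a short hairpin RNA against TST, and overTST carried a codon-optimized TST coding sequence under a CMV promoter. Per the methods, both constructs were packaged in lentivirus, and transduced cells were selected in blasticidin. All 3 groups were kept for 24 h in culture medium with 400 µM glycine. TST is the mitochondrial thiosulfate sulfurtransferase, or rhodanese, which converts cyanide to thiocyanate. The comparisons asked how silencing or overexpressing it changed the levels of hepatocyte transcripts, here those of lipoprotein genes. The labels describe no WT cells with an empty vector, so vector and selection cannot be told apart from TST in either comparison with WT.

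Hepatocytes export triglyceride and cholesterol as very-low-density lipoprotein, a particle built on a single molecule of APOB. The microsomal triglyceride transfer protein MTTP loads lipid onto APOB while it is being made in the endoplasmic reticulum, and APOB that is not loaded is largely degraded. APOA1 and APOA2 are the main proteins of high-density lipoprotein, APOA1 activates the plasma enzyme LCAT that esterifies cholesterol, and the small exchangeable proteins APOC1, APOC3 and APOE move between particles and govern lipolysis and receptor uptake. APOM carries sphingosine 1-phosphate on high-density lipoprotein. APOH, or beta-2-glycoprotein I, binds anionic phospholipid and is abundant in plasma. Liver is the main source of most of these proteins, and HepG2 cells are a common model of their secretion.

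In the deposited annotation of GRCh38, APOA1 lies at chr11:116835751-116837950 on the minus strand and APOC3 at chr11:116829706-116833072 on the plus strand, in the cluster that also holds APOA4 and APOA5. APOE, at chr19:44905754-44909393, and APOC1, at chr19:44914247-44919349, stand together on the plus strand of a second cluster. APOB is at chr2:21001429-21044073, APOA2 at chr1:161222292-161223631, APOH at chr17:66212033-66256525 and LCAT at chr16:67939750-67944131, all on the minus strand. APOM, at chr6:31652416-31658210, and MTTP, at chr4:99563761-99623999, are on the plus strand. The counted exons of APOB sum to 14828 bases and those of MTTP to 5398, whereas the others are between 866 bases (APOC3) and 2625 bases (LCAT).

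The promoters of 4 of the genes are shown because they cover the kinds of response described next: APOE and APOC1 are clustered neighbours with like fold changes, APOM is a gene whose fold change had opposite signs in the knockdown and the overexpressing cells, and MTTP had a lower level in both. The sequences are the 250 bases before each RefSeq start on GRCh38.p14, read on the strand of the gene, all plus. These starts differ from the gene starts of the annotation used for counting. By that annotation the APOC1, APOM and MTTP windows lie inside the gene, and the APOE window crosses the gene start. For MTTP the table holds a pair of starts and both are given. For APOE, with 3 starts, the most upstream is given. Capitals mark matches on either strand to GGGCGG (the GC box), AGGTCA (a nuclear receptor site), CCAAT (the site of NF-Y), TATAAA (the core promoter box), GTTAAT (a piece of the HNF1 site) or TGTTTAC (a forkhead motif).
APOE, chr19:44905546-44905795: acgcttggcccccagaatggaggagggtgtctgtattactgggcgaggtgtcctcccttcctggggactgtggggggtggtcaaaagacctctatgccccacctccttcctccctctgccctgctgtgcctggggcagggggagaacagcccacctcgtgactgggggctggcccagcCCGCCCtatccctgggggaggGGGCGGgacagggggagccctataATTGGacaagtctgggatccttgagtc
APOC1, chr19:44914422-44914671: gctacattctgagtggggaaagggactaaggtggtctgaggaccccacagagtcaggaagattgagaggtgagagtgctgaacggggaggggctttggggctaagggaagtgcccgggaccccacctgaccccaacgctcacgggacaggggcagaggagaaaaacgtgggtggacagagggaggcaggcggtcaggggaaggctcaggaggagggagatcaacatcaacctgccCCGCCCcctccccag
APOM, chr6:31655644-31655893: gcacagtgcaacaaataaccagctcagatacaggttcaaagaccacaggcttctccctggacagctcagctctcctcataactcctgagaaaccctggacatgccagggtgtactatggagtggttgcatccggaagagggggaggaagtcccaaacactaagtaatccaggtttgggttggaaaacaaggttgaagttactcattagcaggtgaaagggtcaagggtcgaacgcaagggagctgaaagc
MTTP, upstream start, chr4:99563880-99564129: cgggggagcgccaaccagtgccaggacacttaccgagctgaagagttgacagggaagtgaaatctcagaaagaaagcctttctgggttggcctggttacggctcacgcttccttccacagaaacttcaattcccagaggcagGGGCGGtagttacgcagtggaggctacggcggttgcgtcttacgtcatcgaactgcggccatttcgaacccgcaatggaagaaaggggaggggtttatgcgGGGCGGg
MTTP, downstream start, chr4:99574574-99574823: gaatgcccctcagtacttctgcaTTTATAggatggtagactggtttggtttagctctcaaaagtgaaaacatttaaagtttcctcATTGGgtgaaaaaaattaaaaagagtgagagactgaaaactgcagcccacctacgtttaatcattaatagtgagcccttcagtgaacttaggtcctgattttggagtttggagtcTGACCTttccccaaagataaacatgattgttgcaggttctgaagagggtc

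GGGCGG was found 2 times before APOE, 2 times before the upstream MTTP start and 1 time before APOC1, and it occurs in 42.6% of the 35116 promoters of the table in windows of the same length. The downstream MTTP start had 1 match of AGGTCA (found in 12.1% of promoters), 1 of CCAAT (found in 32.0%) and 1 of TATAAA (found in 10.7%). CCAAT also occurred 1 time before APOE, and none of the 6 motifs was found in the APOM window. APOH (2 matches of GTTAAT, present in 6.23% of promoters) and APOA2 (1 match of TGTTTAC, present in 2.98%) were also in the table, so that 6 of the 10 genes were matched. APOA1, APOB, APOC3 and LCAT were not matched. Motifs were searched on both strands and none of the matches overlap; a match describes letters in the window and was not tested against the expression data.

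Library depth ranged from 22911380 to 45120508 counts, with the 4 overTST libraries (22911380 to 27414142) all below the WT and shTST libraries, and each of the 10 genes passed the filter on low counts in every comparison. As in any bulk sample, fewer expressing cells and less RNA per cell cannot be told apart. Levels per library are given as CPM, that is counts scaled by library size with TMM factors over all 12 libraries, and fold changes are log2 values from edgeR's quasi-likelihood fits with their standard error (SE). A gene was called when its Benjamini-Hochberg adjusted p over all genes tested in the comparison was 0.05 or less. TST itself was at 47.2 to 52.8 CPM in WT, 33.0 to 36.6 CPM in shTST and 51.8 to 62.1 CPM in overTST. It was lower with shTST without overlap (log2 fold change −0.52 ± 0.055, edgeR adjusted p = 3.2e-06), and higher with overTST with overlap (0.24 ± 0.062, adjusted p = 0.00384). The transgene was codon optimized, so the share of its reads counted at the annotated TST gene is not known, and with a correction for gene length the TST value in overTST was 0.10 (adjusted p = 0.201). For TST overexpression and knockdown in HepG2 cells, the paper reports western blots, and faster and slower breakdown of added cyanide, respectively. The 8 hepatocyte markers, among them albumin and AFP, summed to 14650 to 17577 CPM in WT, 17065 to 20982 CPM in shTST and 15131 to 19632 CPM in overTST, and the 8 markers of leukocytes, endothelium, fibroblasts and bile duct cells to 9.52 to 12.7 CPM over all libraries. Of the latter, 4 of the 8 reached 1 CPM or more in a library of each group. CD14 was the highest, at 4.11 to 6.09 CPM over all libraries. CD68 was at 1.14 CPM or more, and COL1A1 was at 0.805 to 1.67 CPM. PTPRC was at 0 in every WT and overTST library, COL3A1 did not exceed 0.0679 CPM and KRT7 did not exceed 0.297 CPM.

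Transcripts of 5 of the 10 genes ranked among the 55 most abundant per length in WT cells. Per kilobase of exon, the mean level in WT was highest for APOA2 at 1723 ± 153 CPM per kb (SD, n = 4), the 19th highest of all genes, followed by APOA1 at 1214 ± 124 and APOH at 1073 ± 106 CPM per kb. APOE (561 ± 70.8 CPM per kb) and APOB (528 ± 28.4 CPM per kb) came next. APOC1 (103 ± 10.5), APOM (63.2 ± 5.46) and APOC3 (60.2 ± 7.26 CPM per kb) formed a lower tier, and LCAT (11.8 ± 0.415) and MTTP (6.74 ± 0.362 CPM per kb) were the least abundant. In this order APOA1 and APOH overlapped in WT, as did APOE with APOB and APOM with APOC3, while all other neighbours were separated over the 4 libraries. In shTST and overTST the order was the same apart from APOC3, whose mean stood above that of APOM, and APOE no longer overlapped with APOB in either group. The lowest APOE value in shTST, 573 CPM per kb, was above the highest APOB value, 481 CPM per kb. In overTST the corresponding levels were 577 and 405 CPM per kb.

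Together the 10 genes took 1.43 ± 0.067% of all counts in WT, 1.41 ± 0.038% in shTST and 1.24 ± 0.041% in overTST (mean ± SD, n = 4 each). APOB, with the longest transcript, held most of the WT share at 0.742 to 0.854% of counts. Its share was 0.667 to 0.725% in shTST and 0.473 to 0.588% in overTST, so that the 3 groups did not overlap. The other 9 genes together took 0.576 to 0.732% in WT, 0.647 to 0.757% in shTST and 0.637 to 0.808% in overTST, and these ranges overlapped.

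**Figure D1:**
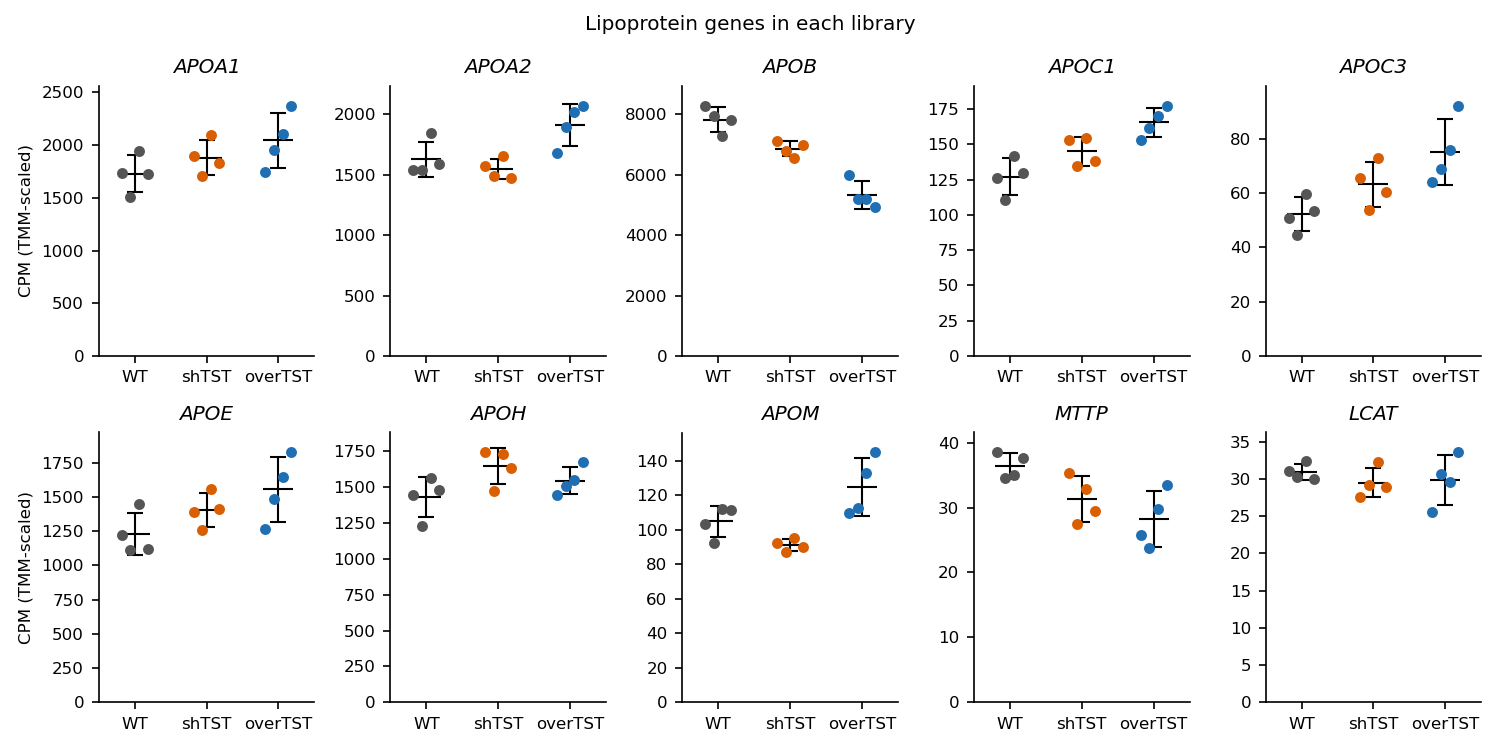
CPM (TMM-scaled, linear axis from 0) of each of the 10 genes in the 4 libraries of WT, shTST and overTST. Points are libraries in replicate order, and the bar and whiskers are the mean and SD of each group. APOB falls from 7272 to 8281 CPM in WT to 4925 to 6011 CPM in overTST, whereas APOC3 rises from 44.6 to 59.8 CPM to 64.0 to 92.1 CPM.

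Before correction for gene length, transcripts of exchangeable and high-density lipoprotein apolipoproteins rose with overTST. Those of APOB and its lipid-loading partner MTTP fell. Of the 10 genes 8 were called, where 33.9% of the 14421 genes tested were called, and 6 rose (APOA1, APOA2, APOC1, APOC3, APOE and APOM) while 2 fell (APOB and MTTP). Of all genes, 15.7% rose and 18.2% fell. The median log2 fold change of the 10 genes was 0.24 and that of all genes tested 0.0019. In 4 of the 10 genes the overTST and WT libraries did not overlap (APOC1 and APOC3 higher, APOB and MTTP lower), as in 30.4% of all genes tested (14.2% higher and 16.2% lower). Fold changes in overTST followed gene length across the transcriptome, as given below. After a correction for it, 3 of the 6 rises were not called, those of APOA1, APOA2 and APOM. The rises of APOC1, APOC3 and APOE and the falls of APOB and MTTP stayed called.

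With TST silenced, changes were smaller and mixed. Of the 10 genes 6 were called, where 16.1% of the 14584 genes tested were called. APOC1, APOC3 and APOH rose, as did 6.69% of all genes, and APOB, APOM and MTTP fell, as did 9.4% of all genes. The median log2 fold change was 0.030 for the 10 genes and 0.0040 for all genes. The shTST and WT libraries did not overlap in 1 of the 10 genes, APOB, against 19.1% of all genes tested (8.37% higher and 10.8% lower). The calls depended on single libraries. Only 2 of the 10 genes were called when WT replicate 1 was left out (APOC3 and APOM). The same number was called when any of shTST replicates 1 and 3 (APOM and MTTP) and 4 (APOC1 and APOC3) was left out. Leaving out WT replicate 2 kept 3 calls (APOB, APOM and MTTP), as did leaving out WT replicate 4 (APOC1, APOC3 and APOH). APOC3 was not called with DESeq2 (adjusted p = 0.1), APOB and MTTP were not with upper-quartile normalization, and APOM and MTTP were not in the fit of all 12 libraries.

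The direct comparison of shTST with overTST, in a single fit of all 12 libraries, called 5 of the 10 genes, against 33% of the 14883 genes tested. APOB was higher in shTST, and APOA2, APOC1, APOC3 and APOM were lower. The libraries did not overlap in 3 genes (APOB, APOA2 and APOM), against 29.2% of all genes tested (14.5% higher and 14.7% lower). The count of calls was 3 (APOA2, APOB and APOM) without shTST replicate 2, shTST replicate 4 or overTST replicate 3. Both comparisons with WT used the same 4 WT libraries, so their values are given side by side and were not tested against each other.

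**Figure D2:**
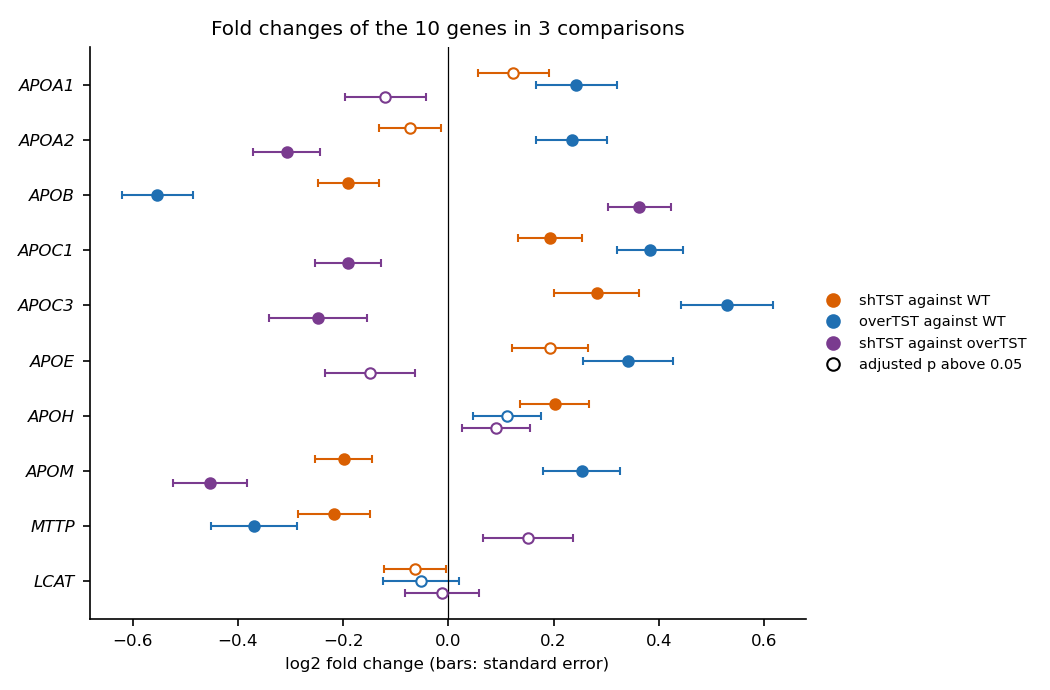
Log2 fold change with its SE (horizontal bars) for each gene in shTST against WT, overTST against WT and shTST against overTST, where a positive value means higher in the group named first. Filled points have an adjusted p of 0.05 or less. The largest values are −0.55 for APOB and 0.53 for APOC3, both in overTST, and APOM lies on opposite sides of 0 in the comparisons with WT.

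APOB, the structural protein of very-low-density and low-density lipoprotein, was at 8281, 7956, 7272 and 7819 CPM in the WT libraries, at 7134, 6806, 6543 and 6973 CPM in shTST and at 6011, 5203, 5214 and 4925 CPM in overTST. All shTST libraries were below all WT libraries, and all overTST libraries were below both. The fitted log2 fold change was −0.19 ± 0.058 with shTST (adjusted p = 0.0266) and −0.55 ± 0.067 with overTST (adjusted p = 1.5e-06), where APOB fell by 31.8%. Compared directly, APOB was higher in shTST than in overTST by 0.36 ± 0.060 on the log2 scale (adjusted p = 6.29e-05). It stayed called in overTST and in the direct comparison when any library was left out. Its exons share 169 bases, or 1.14% of its length, with ENSG00000280390, which had at most 8 counts in a library.

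MTTP, which transfers lipid to nascent APOB, was at 38.5, 34.5, 34.9 and 37.6 CPM in WT, at 35.4, 27.4, 32.8 and 29.4 CPM in shTST and at 25.7, 23.8, 29.7 and 33.5 CPM in overTST. The overTST libraries were all below WT, and the shTST libraries spanned the range between. Against WT, the log2 fold change was −0.22 ± 0.069 with shTST (adjusted p = 0.0331) and −0.37 ± 0.081 with overTST (adjusted p = 0.00106). Between shTST and overTST it was 0.15 ± 0.086, which did not pass the test (adjusted p = 0.182). Within overTST the spread was wide, at 28.2 ± 4.32 CPM (SD, n = 4) against 36.4 ± 1.96 CPM in WT.

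APOA1, the principal protein of high-density lipoprotein, was at 1738, 1509, 1941 and 1724 CPM in WT, at 1893, 1706, 2097 and 1832 CPM in shTST and at 1746, 1956, 2107 and 2371 CPM in overTST. All 3 groups overlapped. Relative to WT, the log2 fold change of APOA1 was 0.12 ± 0.068 with shTST (adjusted p = 0.226) and 0.24 ± 0.077 with overTST (adjusted p = 0.0167). The overTST call was lost without WT replicate 2, overTST replicate 3 or overTST replicate 4, where the adjusted p reached 0.103, and with DESeq2. Of APOA1, 123 exonic bases are shared with the antisense gene APOA1-AS, which had 0 to 3 counts.

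APOA2, the second protein of high-density lipoprotein, was at 1543, 1542, 1843 and 1584 CPM in WT, at 1571, 1486, 1657 and 1475 CPM in shTST and at 1679, 1895, 2016 and 2068 CPM in overTST. WT replicate 3 stood above the other WT libraries and overlapped with overTST, but no shTST library reached the overTST range. For APOA2 the log2 fold change was −0.07 ± 0.059 with shTST (adjusted p = 0.438), 0.23 ± 0.067 with overTST (adjusted p = 0.00837) and −0.31 ± 0.064 between shTST and overTST (adjusted p = 5.93e-04).

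APOM was at 103, 92.6, 112 and 111 CPM in WT, at 92.3, 87.0, 95.5 and 90.0 CPM in shTST and at 110, 112, 133 and 145 CPM in overTST. Of the shTST libraries 3 of 4 lay below all WT libraries, the overTST libraries lay at the high end of WT or above it, and shTST and overTST did not overlap with each other. Its log2 fold change was −0.20 ± 0.055 with shTST (adjusted p = 0.0154) and 0.25 ± 0.074 with overTST (adjusted p = 0.0095). The direct difference of −0.45 ± 0.070 (adjusted p = 3.39e-05) was the largest of the 10 genes in that comparison. APOM was the only gene of the 10 called with opposite signs against WT, but neither call held throughout. Its overTST call was lost without overTST replicate 4, with an adjusted p of 0.063, and with the length correction (0.09, adjusted p = 0.313). APOM lost its shTST call without WT replicates 3 or 4 or shTST replicates 2 or 4, and in the fit of all 12 libraries. Of its exonic bases 136 (8.19%) overlap BAG6 on the opposite strand, a gene with 14186 to 32024 counts per library and a log2 fold change of −0.25 ± 0.047 with shTST (adjusted p = 0.00116) and −0.09 ± 0.050 with overTST (adjusted p = 0.182). The use of strand in counting is not given in the sources used here, so reads of the shared bases cannot be told apart.

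APOC3, which inhibits lipoprotein lipase and hepatic uptake of remnants, had the largest rise of the set. Its levels were 50.8, 44.6, 59.8 and 53.5 CPM in WT, 65.7, 53.7, 73.1 and 60.2 CPM in shTST and 64.0, 68.8, 75.8 and 92.1 CPM in overTST. All overTST libraries were above all WT libraries, and shTST overlapped with both. APOC3 changed by a log2 fold of 0.28 ± 0.081 with shTST (adjusted p = 0.0198) and 0.53 ± 0.087 with overTST (adjusted p = 5.82e-05), the latter a rise of 44.3%. Between shTST and overTST it was −0.25 ± 0.093 (adjusted p = 0.0425), a call that was lost without any 1 of 5 libraries (shTST replicates 1, 2 and 4 and overTST replicates 3 and 4), with DESeq2 (adjusted p = 0.15) and with limma-voom (adjusted p = 0.0567).

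APOC1, an inhibitor of receptor-mediated uptake and of cholesteryl ester transfer, was at 126, 111, 142 and 130 CPM in WT, at 153, 134, 155 and 138 CPM in shTST and at 153, 162, 170 and 177 CPM in overTST. The overTST libraries were above all WT libraries. In log2 terms, APOC1 differed from WT by 0.19 ± 0.061 with shTST (adjusted p = 0.0339), 0.38 ± 0.062 with overTST (adjusted p = 5.08e-05) and −0.19 ± 0.062 between shTST and overTST (adjusted p = 0.0203). The direct call was lost without shTST replicate 2, shTST replicate 4, overTST replicate 3 or overTST replicate 4. Of the exonic bases of APOC1, 532 (43.2%) also belong to ENSG00000280087 on the same strand, which had 69 to 118 counts per library, so reads in the shared stretch may not have been assigned to APOC1.

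APOE, which mediates the uptake of remnant particles, was at 1226, 1116, 1448 and 1122 CPM in WT, at 1390, 1256, 1558 and 1409 CPM in shTST and at 1265, 1489, 1643 and 1825 CPM in overTST. WT replicate 3 reached into both other groups. The log2 fold change was 0.19 ± 0.072 with shTST (adjusted p = 0.0692) and 0.34 ± 0.086 with overTST (adjusted p = 0.00325). Between shTST and overTST it was −0.15 ± 0.086 (adjusted p = 0.195).

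APOH alone of the 10 genes had its highest mean in shTST. It was at 1445, 1229, 1562 and 1481 CPM in WT, at 1739, 1473, 1732 and 1630 CPM in shTST and at 1446, 1508, 1547 and 1672 CPM in overTST. Its log2 fold change against WT was 0.20 ± 0.065 with shTST (adjusted p = 0.037), 0.11 ± 0.065 with overTST (adjusted p = 0.197) and 0.09 ± 0.064 between shTST and overTST (adjusted p = 0.3). All 3 groups overlapped. LCAT, the cholesterol-esterifying enzyme of plasma, was called in no comparison, with 29.9 to 32.4 CPM in WT, 27.6 to 32.3 CPM in shTST and 25.5 to 33.5 CPM in overTST. Its log2 fold change was −0.06 ± 0.059 with shTST (adjusted p = 0.512) and −0.05 ± 0.072 with overTST (adjusted p = 0.61). The exons of LCAT share 336 bases (12.8%) with SLC12A4 on the same strand, which fell by 0.33 and 0.54 on the log2 scale with shTST and overTST.

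The balance of APOB to APOA1, the leading proteins of the 2 particle classes, was read as the ratio of their counts in each library. The ratio was 3.75 to 5.27 in WT, 3.12 to 3.99 in shTST and 2.08 to 3.44 in overTST. All overTST libraries were below all WT libraries, and shTST overlapped with both groups. The means were 4.58 ± 0.635, 3.67 ± 0.380 and 2.66 ± 0.574 (SD, n = 4 each). These genes are at opposite ends of the length range of the set, and the ratio was not tested.

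**Figure D3:**
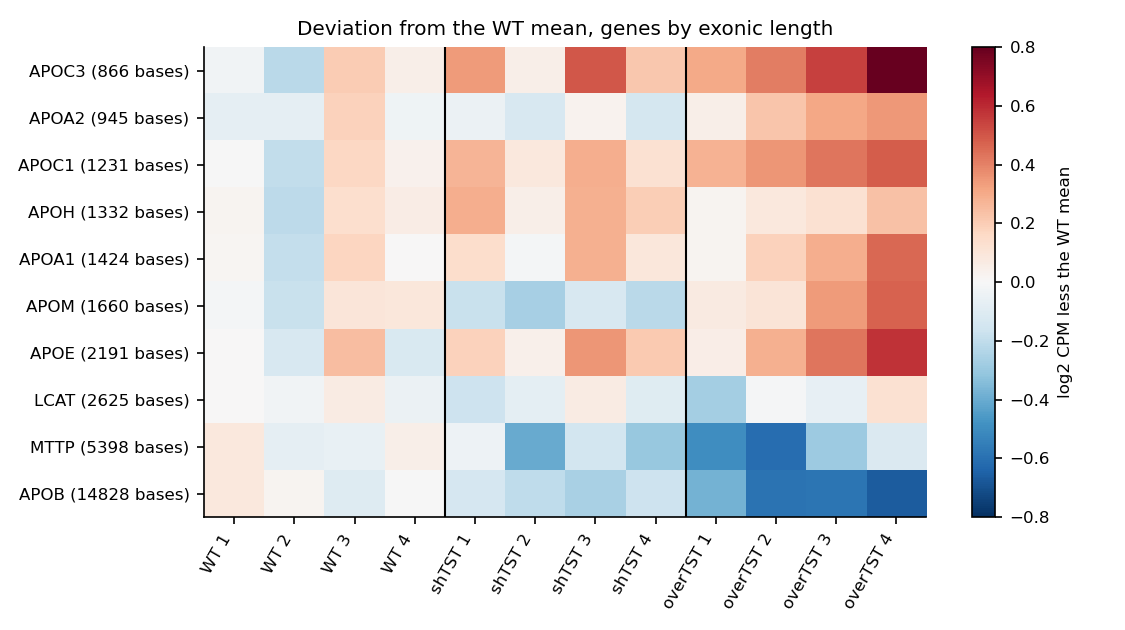
Log2 CPM of each gene in each library less the mean of the WT libraries, with genes ordered by exonic length from APOC3 (866 bases) to APOB (14828 bases). Red is higher and blue lower than WT. In overTST the short genes are mostly red and MTTP and APOB are blue, while APOM is blue in the 4 shTST libraries and red in the 4 overTST libraries.

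Within groups, the genes other than APOB also varied together from library to library. After subtraction of the group means, all 36 pairs that did not include APOB were positively correlated over the 12 libraries (Pearson r from 0.32 to 0.97, median 0.80). All 9 pairs with APOB were negatively correlated (r from −0.89 to −0.22). APOA1 and APOC3, neighbours in the cluster on chromosome 11, had r = 0.97, and APOE and APOC1, neighbours on chromosome 19, had r = 0.80, near the median. Genes on different chromosomes reached like values, such as APOC1 with APOH (r = 0.96) and APOA1 with APOE (r = 0.94), so high values were not particular to neighbours. APOB and its partner MTTP had r = −0.22. These correlations are descriptive, and each library shares 1 scaling factor and 1 depth over all its genes. Single libraries also differed in the levels of short against long genes, as given below, and no length correction was applied here. Pairs of other genes were not compared, so the pattern is not shown to be particular to lipoprotein genes. Over the 12 libraries without subtraction, the genes most like APOA1 among 8669 genes with a mean of 10 CPM or more were APOA5 (r = 0.96), APOE (0.96) and FDPS (0.95), a gene of the mevalonate pathway. Those most like APOB were IARS1 (r = 0.99), ZNF106 (0.99) and CLTC (0.99), with exonic lengths of 7401, 12208 and 11836 bases.

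Fold changes followed exonic length over all genes tested. With overTST, the median log2 fold change was 0.21 for genes of up to 1 kb, 0.18 for 1 to 2 kb, 0.072 for 2 to 4 kb, −0.052 for 4 to 8 kb and −0.16 for longer genes. In the class of 1 to 2 kb, with APOA1, APOC1, APOH and APOM, 31.7% of genes were called higher and 2.45% lower, and in the class above 8 kb, with APOB, 6.75% were called higher and 41.6% lower. With shTST the medians ran from 0.057 to −0.020. In single libraries, the median log2 deviation of genes up to 2 kb less that of genes above 8 kb was −0.098 to 0.107 in WT, 0.032 to 0.112 in shTST and 0.234 to 0.389 in overTST. The lowest WT value was in WT replicate 2 and the highest in WT replicate 3, the libraries with the lowest and the highest APOA1 of that group.

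Since transcript length moved with the fold changes, each fit was repeated with a lowess trend on length removed from each library. With overTST, 5 of the 8 calls remained: APOB at −0.36 (adjusted p = 8.26e-05), MTTP at −0.32 (0.00414), APOC3 at 0.35 (0.00142), APOC1 at 0.21 (0.00387) and APOE at 0.21 (0.0384). The calls of APOA1 (0.07, adjusted p = 0.455), APOA2 (0.06, adjusted p = 0.503) and APOM (0.09, adjusted p = 0.313) were lost. The value of APOH turned from 0.11 to −0.06, with neither called. With shTST all 6 calls remained and APOE was added at 0.18 (adjusted p = 0.0485). Between shTST and overTST, APOB (0.19, adjusted p = 0.00661), APOA2 (−0.16, adjusted p = 0.0243) and APOM (−0.31, adjusted p = 4.13e-04) remained called. APOC1 (−0.05) and APOC3 (−0.10) were lost there, APOH was added at 0.24 (adjusted p = 0.00229), and APOA1 turned from −0.12 to 0.03 without a call. The part of length in these results was not tested beyond this correction.

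**Figure D4:**
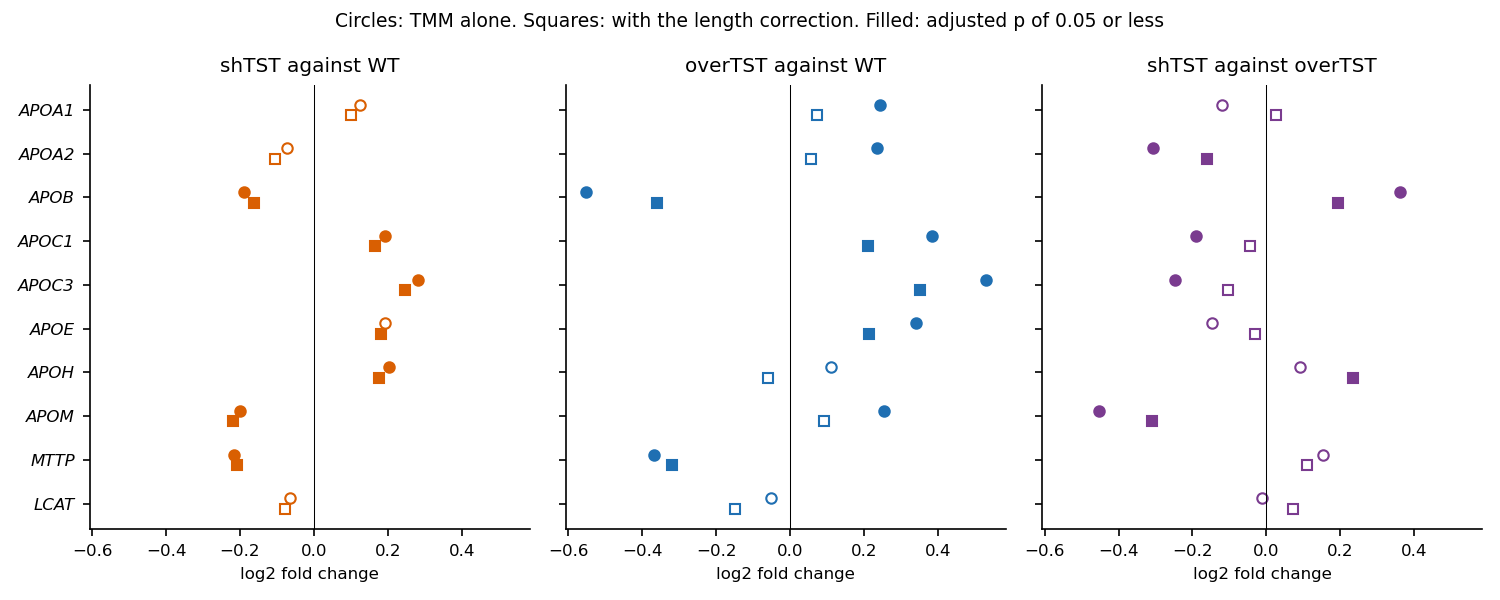
Log2 fold change of each gene without (circles) and with (squares) the correction for exonic length in 3 comparisons, filled where the adjusted p is 0.05 or less. In overTST the squares of APOA1, APOA2 and APOM are open and near 0, and that of APOB moves from −0.55 to −0.36.

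Neighbouring apolipoprotein genes were examined beside the 10. APOA4, an intestinal and hepatic apolipoprotein next to APOC3, was at 2.42 to 2.92 CPM in WT, 3.28 to 4.58 CPM in shTST and 3.52 to 5.50 CPM in overTST, above WT without overlap in both lines. Its log2 fold change was 0.52 ± 0.14 with shTST (adjusted p = 0.0128) and 0.75 ± 0.14 with overTST (adjusted p = 2.94e-04), and the shTST call was lost without shTST replicate 1. APOA5, which promotes triglyceride lipolysis, was at 24.9 to 34.7 CPM in WT and rose with overTST by 0.31 ± 0.095 (adjusted p = 0.0147), a call lost with DESeq2 and on removal of WT replicate 2, overTST replicate 3 or overTST replicate 4. APOC2, the activator of lipoprotein lipase, rose with overTST by 0.33 ± 0.11 (adjusted p = 0.0226), a call lost on removal of WT replicate 1, overTST replicate 2 or overTST replicate 4. Neither of these last rises was called after the correction for length (adjusted p = 0.16 and 0.303). APOC4 had 0 to 2 counts per library and was not tested.

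Other genes of lipoprotein metabolism were followed as lists. Of 18 further apolipoproteins and particle-bound proteins 12 were tested. With shTST 1 rose (APOA4) and 1 fell (APOL2, −0.30), and with overTST 4 rose (APOA4, APOA5, APOC2 and SAA4) and 1 fell (APOL6). The called share of those tested was 16.7% with shTST, near the 16.1% of all genes, and 41.7% with overTST, against 33.9% of all genes. With the length correction 1 of the 12 was called with overTST, and SAA4 moved from 0.24 to 0.06 (adjusted p = 0.552). The SAA4 call was also lost on removal of WT replicate 2 or of overTST replicates 3 or 4. Of 18 genes for lipid loading and the secretory route 17 were tested. With shTST CES1, a lipid-mobilizing carboxylesterase, rose, and SOAT2, the hepatic cholesterol acyltransferase (−0.43 ± 0.064, adjusted p = 1.06e-04), and the lipid-droplet protein PLIN2 fell. With overTST CES1 rose and MIA3, KLHL12, SOAT1 and SORT1 fell, SORT1 being a sorting receptor that binds APOB (−0.32 ± 0.054, adjusted p = 6.47e-05). MIA3 and KLHL12 act in the export of large cargo from the endoplasmic reticulum. The CES1 call was lost with shTST on removal of shTST replicate 4 and with overTST on removal of overTST replicates 3 or 4. With the length correction in overTST, CES1 was at 0.10 (adjusted p = 0.15) and SOAT1 at −0.13 (adjusted p = 0.0837), neither called, and SORT1 at −0.19 (adjusted p = 0.0105). The called share was 17.6% with shTST and 29.4% with overTST, against 16.1% and 33.9% of all genes, and the list medians were −0.018 and −0.082.

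In the list of 13 genes of high-density lipoprotein formation and plasma lipolysis, 12 were tested with shTST and 11 with overTST. ANGPTL8, an inhibitor of lipoprotein lipase, rose with overTST (0.75 ± 0.18, adjusted p = 0.00206). It was also called higher with shTST (0.51 ± 0.15, adjusted p = 0.022), a call lost in the fit of all 12 libraries and on removal of WT replicates 2 or 4 or of shTST replicates 1 or 3. ABCA1, which passes cell cholesterol to APOA1, was at 37.6 to 49.7 CPM in WT and 32.6 to 35.6 CPM in overTST, without overlap, and fell by 0.42 ± 0.073 (adjusted p = 9.67e-05), and its value was −0.26 with the length correction (adjusted p = 0.0063). Endothelial lipase, LIPG, fell with overTST by 0.51 ± 0.13 (adjusted p = 0.00431), and after the length correction its value was −0.32 (adjusted p = 0.0798). Of the genes tested 8.33% were called with shTST and 27.3% with overTST, both below the shares of all genes, 16.1% and 33.9%, and the list medians were 0.12 and −0.0020. With the length correction 2 of them were called with shTST, against 1 without.

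Among genes of particle uptake, HSPG2, which encodes the heparan sulphate proteoglycan perlecan, and LRP1, which binds APOE on remnant particles, fell in both lines. LRP1 was at 513 to 580 CPM in WT, 407 to 479 CPM in shTST and 303 to 354 CPM in overTST, with no overlap between any groups. Its log2 fold change was −0.26 ± 0.052 with shTST (adjusted p = 0.00167) and −0.72 ± 0.055 with overTST (adjusted p = 5.2e-09). HSPG2 was at 153 to 179 CPM in WT, 108 to 136 CPM in shTST and 68.0 to 98.3 CPM in overTST, again without overlap, and its log2 fold change was −0.40 ± 0.060 with shTST and −0.96 ± 0.078 with overTST. Compared directly, HSPG2 and LRP1 were higher in shTST than in overTST (0.56 ± 0.081 and 0.45 ± 0.056). Both are long, with 17684 and 20839 exonic bases. With the length correction the overTST values were −0.75 for HSPG2 and −0.50 for LRP1, and the direct differences were 0.38 and 0.26. All of these remained called.

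Of 23 transcription factors known to act on apolipoprotein genes, all were tested. With shTST 3 rose (FOXA1, NR1H4 and SREBF1) and 5 fell (CEBPB, FOXA2, NR0B2, NR1H3 and FOXO1), of which CEBPB had the smallest p (−0.31 ± 0.056, adjusted p = 7.22e-04). These are 34.8% of the list, against 16.1% of all genes. With overTST SREBF1 rose and 5 fell (HNF4A, PPARA, PPARGC1A, SREBF2 and FOXO1), 26.1% of the list against 33.9% of all genes. Of these, PPARA, a nuclear receptor for fatty acids, fell by 0.43 ± 0.065 (adjusted p = 2.25e-05; −0.24 with the length correction, adjusted p = 0.00392), and FOXO1, an insulin-regulated factor that drives APOC3 and MTTP, fell by 0.43 ± 0.069 (adjusted p = 3.77e-05). HNF4A, a main activator of apolipoprotein genes in liver, fell by 0.15 ± 0.045 (adjusted p = 0.0125). FOXO1 was at 26.7 to 31.1 CPM in WT, 18.8 to 25.8 CPM in shTST and 19.7 to 21.5 CPM in overTST, below WT without overlap in both lines. Its shTST call was lost on removal of shTST replicate 3. The list medians were −0.087 and 0.0075.

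Markers of hepatocytes were followed in the same way. Of 8, 5 rose (ALB, AFP, TF, FGA and FGB) and TTR fell with shTST, 75.0% of the list against 16.1% of all genes, with a list median of 0.30. With overTST, TTR rose and FGA and FGG fell, 37.5% against 33.9%, and the median was 0.017. The rise of TTR was lost with the length correction (0.03 against 0.16, adjusted p = 0.635), with no filter (adjusted p = 0.07), and on removal of WT replicate 1 or overTST replicates 3 or 4. Of the 8 markers of other cell types 5 were tested. With edgeR none was called with shTST (3 at an unadjusted p under 0.05), and with overTST PECAM1 rose (0.60) and CDH5 fell (−1.31). CDH5, with 1 to 33 counts per library, was not called with DESeq2 or on removal of WT replicate 2 or overTST replicate 3. PECAM1 did not exceed 3.50 CPM and CDH5 did not exceed 0.725 CPM in any library. The part of these markers in the lipoprotein results was not tested.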

How the data were processed

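RNA-seq was performed on 12 libraries of HepG2 cells, grouped from the sample labels, with the glycine dose and time taken from the methods. RNA was extracted with a NucleoSpin RNA plus kit and sequenced at Azenta Life Sciences. The authors deposited raw counts per Ensembl gene, not normalized, in 1 file per library. Per the submitters' processing notes, Trimmomatic 0.36, STAR 2.5.2b and featureCounts of Subread 1.5.2 were used with GRCh38. Counting parameters, including strand, are not given in the sources used here.

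Of 57500 genes 56410 had a name. In each comparison, genes were filtered with filterByExpr, TMM factors were computed, and edgeR's quasi-likelihood test was run with Benjamini-Hochberg adjustment at 0.05. Comparisons with WT used their own 8 libraries, and shTST against overTST used all 12. SE was taken as the absolute log2 fold change over the square root of F. CPM per library are on 1 TMM scale over 12 libraries and can differ slightly from the scale of the 8-library fits, and log2 CPM used a prior count of 2. Depth was 22911380 to 45120508 counts, and the biological coefficient of variation was 5.85 to 6.41%. Per the methods, which cover the study's experiments in general, replicates are biological and were run on separate days with freshly seeded cells, but no label ties a replicate number to a day. All replicate pairs differed by more than sampling noise (chi-square per gene 3.80 to 39.2 over 18 pairs).

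Alternatives were DESeq2, limma-voom, RLE and upper-quartile normalization, other filters, other libraries in the fit, removal of mitochondrially encoded genes, a length correction (lowess, span 0.3), the replicate number as a block, and leaving out each library. The code was tested on simulated counts. The 10 genes and the lists were chosen with earlier results of these data known. Named genes were the 10, TST, their cluster neighbours, genes with overlapping exons, the 2 called genes with the smallest p in each list and comparison, and the 3 genes most like APOA1 and APOB; other genes of a list were named to complete a count after their values were seen. Some genes of particle uptake are not reported here, so no count is given for that list. Promoters came from RefSeq (GRCh38.p14). Software was R 4.3.3, edgeR 4.0.16, limma 3.58.1, DESeq2 1.42.0, Python 3.11.15, pandas 2.3.3 and matplotlib 3.10.9.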

Additional observations from a re-analysis of the deposited data

Results flagged for a closer look

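Of 137 groups of 4 libraries tested over the named genes, 10 had a library far from the other 3, and chance gives about 1 in 20. Among the 10 lipoprotein genes this was APOA2, with WT replicate 3 at 1843 CPM. ShTST replicate 3 was highest for TST (36.6 CPM), SLC12A4 (75.5 CPM), SOAT2 (38.7 CPM) and CEBPB (76.4 CPM). OverTST replicate 1 was highest for TRMT10A (5.75 CPM) and CLTC (462 CPM) and lowest for ENSG00000280087 (3.02 CPM), and overTST replicate 2 was lowest for PPARA (22.2 CPM) and FOXO1 (19.7 CPM).

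The effects of the 2 lines differed by the direct test of shTST against overTST, an edgeR quasi-likelihood test in 1 fit of all libraries, for 29 of the 47 named genes. Over all genes tested the share was 33%, and many of the 47 were named for a small p in a comparison, so the count is no measure of the named genes. On the log2 scale, the difference was −0.31 for APOA2, 0.36 for APOB, −0.19 for APOC1, −0.25 for APOC3 and −0.45 for APOM. It was −0.76 for TST and −0.33 for APOC2. For genes that overlap with the lipoprotein genes it was −0.41 for ENSG00000280087, −0.16 for BAG6 and 0.21 for SLC12A4. Among the lists, genes lower in shTST were APOL2 (−0.46), SOAT2 (−0.35), CEBPB (−0.33), FOXA2 (−0.32), TTR (−0.50), SAA4 (−0.30), PECAM1 (−1.02) and NR0B2 (−0.49). Genes higher in shTST were HSPG2 (0.56), LRP1 (0.45), FGB (0.51), SORT1 (0.31), ABCA1 (0.58), PPARA (0.34), FGG (0.50) and LIPG (0.60). The genes most like APOB were also higher, at 0.29 for IARS1, 0.36 for ZNF106 and 0.31 for CLTC. With the length correction the direct call was lost for APOC1 (adjusted p = 0.563), APOC3 (0.381), APOC2 (0.184), SLC12A4 (0.145) and SAA4 (0.0738).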

How the results depend on the processing

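With overTST, 5 of the 10 genes were called with the length correction and 5 with the replicate block and length correction together, against 8 without. Leaving out 1 library gave 2 to 6 called genes of the 10 with shTST, 6 to 8 with overTST and 3 to 7 in the direct comparison. Over all genes it gave 1513 to 2336 called with shTST, against 2346 from all libraries, the lowest without shTST replicate 1. Less their group means, same-numbered libraries of different groups had r of −0.0527 to 0.0801 over 12 pairs. Pairs with different numbers had a like range, with r of −0.106 to 0.0781. Each library was matched to its most alike of the 4 libraries in each other group, and 10 of 24 such matches were of the same number. With the number as a replicate block, 8, 8 and 5 of the 10 genes were called with shTST, with overTST and directly, and with the length correction in the same fit 7, 5 and 4. Over all genes the block alone gave 2980, 5166 and 5232 calls, against 2346, 4893 and 4907 without it. Values that changed sign were small and not called. APOH with overTST was −0.0604 with the length correction and −0.0586 with the block added. APOA1 in the direct comparison was 0.0259 and 0.0268 with the same corrections. LCAT in the direct comparison was 0.00917 with no filter, 0.0729 with the length correction and 0.0726 with the block added. Leaving out 1 library gave LCAT values of −0.113 to 0.0150 with overTST and −0.0801 to 0.0488 in the direct comparison. The cause was not tested. Depth limits APOC4 and the rarest markers, which had too few counts to test.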
